A study of Mus musculus with 16 samples.

Results

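The miRNA-181 family was examined in the kidney cortex of senescence-accelerated mice. The family was represented by 5 of the 1881 mouse miRNAs on the array: mmu-miR-181a-5p, mmu-miR-181b-5p, mmu-miR-181c-5p and mmu-miR-181d-5p, which share a seed, and mmu-miR-181a-1-3p, the opposite arm of one of the hairpins. They were found by name, and the family was chosen by the strain difference of miRNA-181d-5p, so that difference is given below as a description with no test. In total, 16 male mice were profiled, 1 per array: 4 SAMR1 and 4 SAMP1 mice at 10 weeks of age (SAMR1-10wk and SAMP1-10wk) and 4 of each strain at 50 weeks (SAMR1-50wk and SAMP1-50wk). SAMP1 is a senescence-accelerated prone strain that ages early, and SAMR1 is the related strain that is resistant to accelerated senescence and served as the control. The labels name no treatment and no engineered allele for any group. All the 10-week-old mice were hybridized on 1 slide and all the 50-week-old mice on another, so age and slide cannot be told apart. Each slide held one strain in each of its rows, so strain and row cannot be told apart.

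A miRNA is cut from a hairpin transcript, one arm of which is usually kept, and it guides a silencing complex to messenger RNAs that pair with its seed. The miRNA-181 family is best known in lymphocytes, where it tunes antigen receptor signalling, and miRNA-181b is also known in vascular endothelium as a brake on inflammatory signalling. Both cell types are part of a kidney cortex sample, and in such bulk tissue fewer cells of a type and less RNA per cell cannot be told apart.

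The mature sequences, taken from RefSeq (GRCm38.p6), are shown because they set what the array can tell apart. Capitals mark the seed, bases 2 to 8.

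miRNA-181a-5p: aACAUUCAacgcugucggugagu
miRNA-181b-5p: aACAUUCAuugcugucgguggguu
miRNA-181c-5p: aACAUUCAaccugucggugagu
miRNA-181d-5p: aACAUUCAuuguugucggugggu
miRNA-181a-1-3p: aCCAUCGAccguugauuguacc

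The seed ACAUUCA was held by 4 of the 1679 mature mouse miRNA names in the RefSeq table, and these were the 4 family members named 5p. Outside the seed they fall into pairs. MiRNA-181a-5p and miRNA-181c-5p differ by 1 inserted or deleted base. MiRNA-181b-5p and miRNA-181d-5p differ by C12U, counted from the 5′ end with the miRNA-181b-5p base first, and by 1 base at the 3′ end. These sequence pairs cross the genomic ones. Mir181d (chr8:84178716-84178787) and Mir181c (chr8:84178873-84178961) lie on the minus strand, 85 bases apart, inside no annotated gene that is not a miRNA. MiRNA-181a-5p and miRNA-181b-5p are each made from a pair of loci. Mir181a-1 (chr1:137966455-137966541) and Mir181b-1 (chr1:137966639-137966718) lie on the plus strand, 97 bases apart and in no other annotated gene. Mir181a-2 (chr2:38852735-38852810) and Mir181b-2 (chr2:38853830-38853918) lie on the plus strand, 1019 bases apart, within the spans of Nr6a1, which encodes an orphan nuclear receptor, and its antisense RNA Nr6a1os. The array could not tell which locus a miRNA-181a-5p or miRNA-181b-5p molecule came from.

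Each member was read by 2 probes of different length, with 15 spots each. The probes of the chromosome 8 members are shown because the strain difference of miRNA-181d-5p turned on them. In the miRNA-181d-5p probes the capital marks the only base that does not pair with miRNA-181b-5p.

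miRNA-181c-5p 19-base probe: actcaccgacaggttgaat
miRNA-181c-5p 18-base probe: actcaccgacaggttgaa
miRNA-181d-5p 17-base probe: acccaccgacaAcaatg
miRNA-181d-5p 16-base probe: acccaccgacaAcaat

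Both miRNA-181c-5p probes differ from the complement of miRNA-181a-5p by 1 base, an insertion or deletion. The probes of miRNA-181a-5p and miRNA-181b-5p have near matches too. The 13-base probe of each differs by 1 base from the complement of the other, and that of miRNA-181a-5p also from that of miRNA-181c-5p. Both miRNA-181b-5p probes differ from the complement of miRNA-181d-5p by 1 base. Whether a member also bound the probes of another was not tested.

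The tissue label was checked first. All 6 miRNAs listed for kidney epithelium (miRNA-10a-5p, miRNA-10b-5p, miRNA-30a-5p, miRNA-192-5p, miRNA-194-5p and miRNA-204-5p) were detected on all 16 arrays. Between 352 and 445 miRNAs were detected per array, and the 381 that some group showed on each of its 4 arrays entered the tests. SAMP1 arrays were brighter before scaling, as the 90th percentile of the total gene signal was 10.9 to 22.7 on SAMP1 arrays and 8.76 to 11.0 on SAMR1 arrays. Scaling divided each array by that percentile. All scaled signals below are in the same arbitrary units, and levels of different miRNAs are not compared because each has its own probes. Values represent mean ± SE unless an SD is named.

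MiRNA-181d-5p was detected on all 16 arrays. Its scaled signal was 4.26, 3.63, 3.49 and 4.15 in the SAMR1-10wk mice and 3.60, 3.58, 3.63 and 3.43 in the SAMR1-50wk mice. It was 8.48, 8.36, 8.86 and 8.66 in the SAMP1-10wk mice and 6.21, 6.61, 6.90 and 6.85 in the SAMP1-50wk mice. Every SAMP1 mouse was above every SAMR1 mouse, and the order of the group means was SAMP1-10wk, SAMP1-50wk, SAMR1-10wk, SAMR1-50wk. Of these neighbours only the pair of SAMR1 groups overlapped. The difference SAMP1 minus SAMR1 was 1.02 ± 0.05 on the log2 scale, a 2.03-fold difference, being 1.15 ± 0.07 at 10 weeks and 0.90 ± 0.07 at 50 weeks. The median of all tested miRNAs was -0.07. Near a 2-fold limit, miRNA-142a-5p, a leukocyte miRNA, at 2.02-fold lay just inside with miRNA-181d-5p, and miRNA-1231-5p at 1.99-fold just outside.

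**Figure D1:**
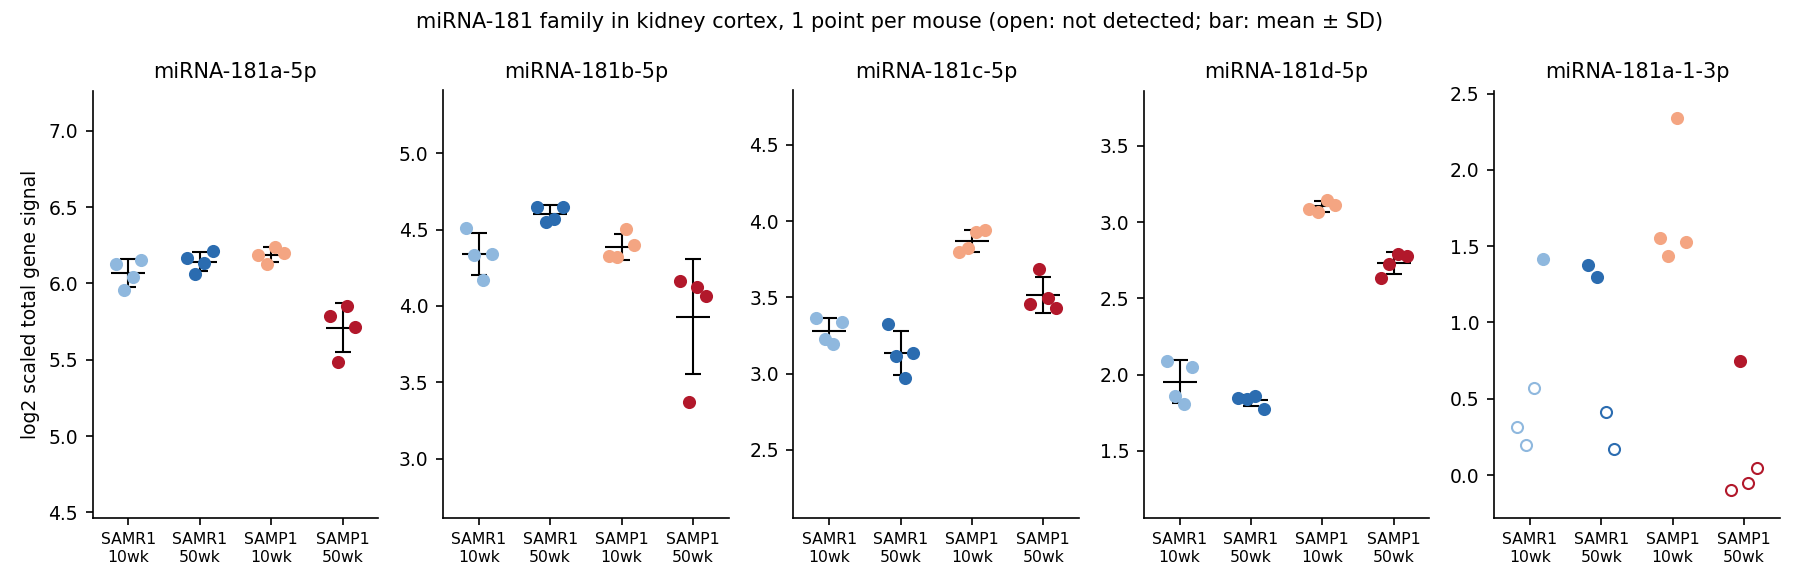
Log2 scaled total gene signal (y axis) of the 5 family members in each mouse of the 4 groups (x axis); bars are mean ± SD of 4 mice, open points are arrays on which the miRNA was not detected, and every panel spans the same log2 range. MiRNA-181c-5p and miRNA-181d-5p were higher in every SAMP1 mouse than in any SAMR1 mouse, while miRNA-181a-5p and miRNA-181b-5p were lowest in the SAMP1-50wk mice.

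The size of the miRNA-181d-5p difference depended on which probes were added together. In these files the total gene signal of a miRNA is the sum of only those probes whose signal exceeds 3 times its own error. That rule gave the deposited value, within 0.1%, for 6136 of 6136 detected values, and no probe passed the limit in any of the 23960 undetected ones. On the 8 SAMR1 arrays only the 17-base probe of miRNA-181d-5p passed, and on the 8 SAMP1 arrays both did. The 16-base probe had a signal of 1.23 to 1.69 in SAMR1 mice, 1.95 to 2.40 times its error, and of 2.34 to 4.18 in SAMP1 mice, 3.13 to 4.26 times its error. Its signal was thus left out of the sum in one strain and added in the other. With both probes summed on every array, the strain difference was 0.48 ± 0.04, or 1.40-fold. At 10 weeks it was 0.63 ± 0.06 and at 50 weeks 0.34 ± 0.06. Taken alone, the 17-base probe differed by 0.43 ± 0.04 and the 16-base probe by 0.60 ± 0.05. For the 17-base probe the highest SAMR1 value was 2.09 on the log2 scale and the lowest SAMP1 value 2.04, so the strains overlapped. For the 16-base probe the highest SAMR1 value was 0.95 and the lowest SAMP1 value 1.06, so they did not. With normexp background correction, which adds an offset of 50 to every spot, the strain difference of miRNA-181d-5p was 0.05 and that of miRNA-181c-5p 0.13.

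Among the 322 miRNAs detected on every array, miRNA-181d-5p was the only one with more probes counted on every SAMP1 array than on any SAMR1 array. Among the 381 tested there was 1 more, miRNA-342-3p, a leukocyte miRNA with no probe counted in SAMR1 mice and 1 or 2 in SAMP1 mice. The number of counted probes varied between arrays for 135 of the 381. All probes of miRNA-181a-5p, miRNA-181b-5p and miRNA-181c-5p were counted on all 16 arrays, so their values are the same under either sum.

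**Figure D2:**
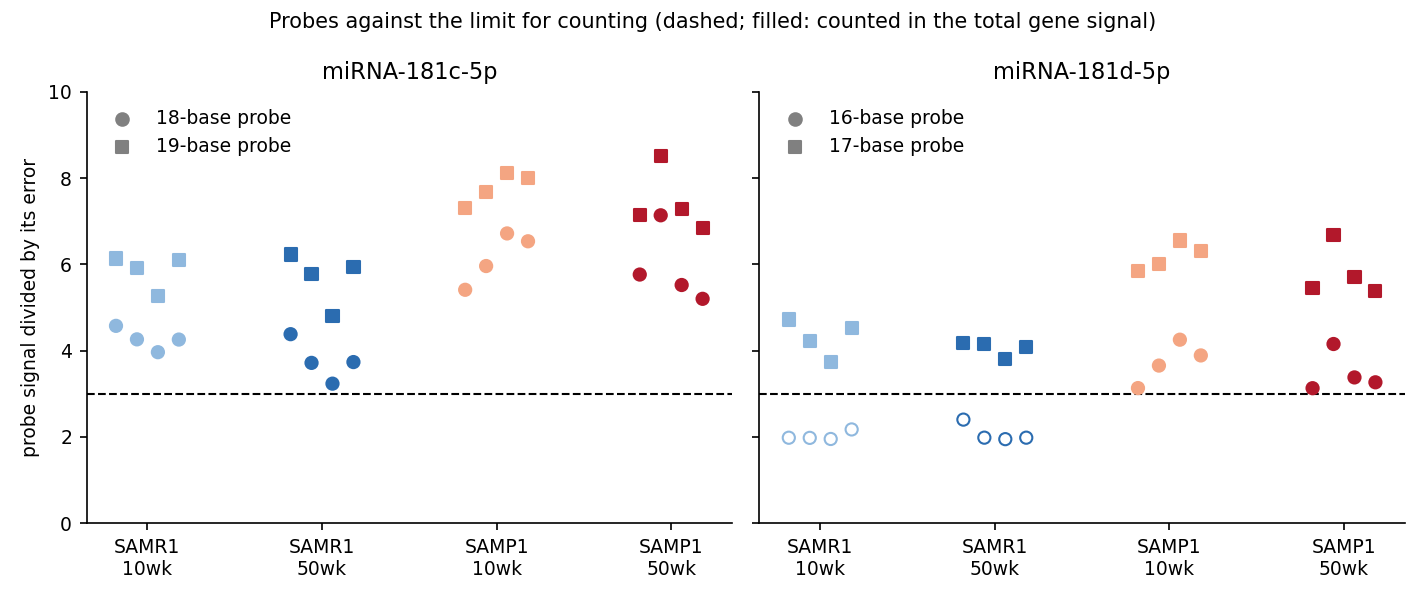
Signal of each probe divided by its error (y axis) on each array of the 4 groups (x axis) for miRNA-181c-5p and miRNA-181d-5p; the dashed line is the limit of 3, and filled points entered the total gene signal. The 16-base probe of miRNA-181d-5p lay below the limit on all 8 SAMR1 arrays, at 1.95 to 2.40, and above it on all 8 SAMP1 arrays, at 3.13 to 4.26.

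MiRNA-181c-5p, made from the neighbouring hairpin, was also higher in SAMP1 mice. Its scaled signal was 10.3, 9.35, 9.16 and 10.1 in the SAMR1-10wk mice and 10.03, 8.67, 7.85 and 8.77 in the SAMR1-50wk mice. It was 13.9, 14.2, 15.2 and 15.3 in the SAMP1-10wk mice and 11.0, 12.9, 11.3 and 10.8 in the SAMP1-50wk mice. The order of the groups was that of miRNA-181d-5p, again with overlap only between the pair of SAMR1 groups. Every SAMP1 mouse being above every SAMR1 mouse held for 0.787% of the tested miRNAs: miRNA-181c-5p, miRNA-181d-5p and miRNA-342-3p. The opposite order held for 2.89%, none of them family members. The difference was 0.48 ± 0.06 on the log2 scale, 1.40-fold (limma, adjusted p = 6.9e-05, 4 mice in each of 4 groups), where 7.35% of the tested miRNAs were called higher in SAMP1 mice. An exact permutation test of the 2 strain means, two-sided, gave p = 0.000155, the smallest it can give. MiRNA-181c-5p was 0.59 ± 0.08 higher at 10 weeks (limma, adjusted p = 0.00040), when 4.2% of miRNAs were called higher. At 50 weeks it was 0.38 ± 0.08 higher (limma, adjusted p = 0.0023), when 6.82% were. Its 19-base probe differed by 0.47 ± 0.06 and its 18-base probe by 0.51 ± 0.06. With no scaling the difference was 1.01 (limma, adjusted p = 0.00014), and the call of miRNA-181c-5p over both ages was kept in all 17 other settings and on leaving out any one array.

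MiRNA-181a-5p showed no such separation. Its scaled signal was 69.8, 62.0, 65.8 and 71.3 in the SAMR1-10wk mice and 71.8, 66.8, 70.1 and 74.2 in the SAMR1-50wk mice. It was 73.0, 70.0, 75.7 and 73.4 in the SAMP1-10wk mice and 55.2, 44.8, 57.9 and 52.5 in the SAMP1-50wk mice. The SAMP1-50wk mice lay below all the others, and the other 3 groups overlapped with their neighbours. MiRNA-181a-5p was 0.16 ± 0.05 lower in SAMP1 mice over both ages (limma, adjusted p = 0.040), and 23.9% of all tested miRNAs were called lower. By strain within an age it was 0.12 ± 0.08 on the log2 scale at 10 weeks (limma, adjusted p = 0.37), and at 50 weeks it was -0.43 ± 0.08 (limma, adjusted p = 0.00091), where 40.4% of the tested miRNAs were called lower. That share depended on the scaling, as the 26 calls higher and 154 lower at 50 weeks became 29 and 46 with the 90th percentile over miRNAs detected on every array, 29 and 83 with the 75th, 280 and 0 with no scaling, 19 and 98 without SAMR1-50wk animal 12, and 17 and 132 without SAMR1-50wk animal 9. At 10 weeks the 16 higher and 1 lower became 15 and 5, 12 and 6, and 15 and 0 under the same scalings, and were 24 and 4 without SAMP1-50wk animal 2, and 13 to 18 and 2 to 3 without animal 1 of SAMR1-10wk, animal 2 of SAMR1-50wk, animal 5 of SAMP1-10wk or animal 1 of SAMP1-50wk.

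MiRNA-181b-5p was also lowest in the SAMP1-50wk mice. Its scaled signal was 22.8, 20.2, 18.0 and 20.3 in the SAMR1-10wk mice and 25.1, 23.4, 23.7 and 25.1 in the SAMR1-50wk mice. It was 20.1, 20.0, 22.7 and 21.1 in the SAMP1-10wk mice and 17.9, 10.4, 17.4 and 16.7 in the SAMP1-50wk mice. The SAMP1-50wk mice were the lowest group without overlap, the SAMR1-50wk mice the highest without overlap, and the pair of 10-week-old groups overlapped. At 50 weeks 29.4% of the tested miRNAs lay lower in every SAMP1 mouse than in any SAMR1 mouse, as did miRNA-181a-5p and miRNA-181b-5p, and 4.2% lay higher. Its strain difference was -0.31 ± 0.10 over both ages (limma, adjusted p = 0.029), 0.05 ± 0.14 at 10 weeks (limma, adjusted p = 0.87) and -0.67 ± 0.14 at 50 weeks (limma, adjusted p = 0.0020). In SAMP1-50wk animal 2, the mouse with 10.4, the array was the brightest of all before scaling, with a 90th percentile of 22.7. Without that array the strain difference at 50 weeks was -0.49 (limma, adjusted p = 0.00052).

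The strain calls of miRNA-181a-5p and miRNA-181b-5p over both ages lay near the limit and were lost without some single arrays. The differences themselves changed little there, at -0.16 to -0.14 for miRNA-181a-5p and -0.31 to -0.28 for miRNA-181b-5p. The adjusted p of miRNA-181a-5p was 0.0505 to 0.0808 on leaving out any one of 10 arrays, namely SAMR1-10wk animals 1, 5 and 7, SAMR1-50wk animals 2, 9 and 12, SAMP1-10wk animals 3, 4 and 6 and SAMP1-50wk animal 11. That of miRNA-181b-5p was 0.0514 to 0.0534 without SAMR1-10wk animals 1 or 7, SAMR1-50wk animal 12, or SAMP1-10wk animals 3 or 4. An exact permutation test of the 2 strain means, two-sided, gave p = 0.15 for miRNA-181a-5p and p = 0.019 for miRNA-181b-5p. The direction of both also turned with no scaling between arrays, to 0.37 and 0.21 over both ages and to 0.35 and 0.11 at 50 weeks, where the medians of all tested miRNAs were 0.45 and 0.57. Over both ages miRNA-181a-5p was then called higher in SAMP1 mice (limma, adjusted p = 0.012), and miRNA-181b-5p was not called (limma, adjusted p = 0.10). Calls over all miRNAs were then 271 higher and 0 lower in SAMP1 mice, against 28 higher and 91 lower with the 90th percentile over all miRNAs and 37 higher and 61 lower with that over miRNAs detected on every array. Relative to the median of all tested miRNAs, which scaling by 1 factor per array cannot move, the strain differences were -0.08 for miRNA-181a-5p, -0.24 for miRNA-181b-5p, 0.56 for miRNA-181c-5p and 1.10 for miRNA-181d-5p.

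**Figure D3:**
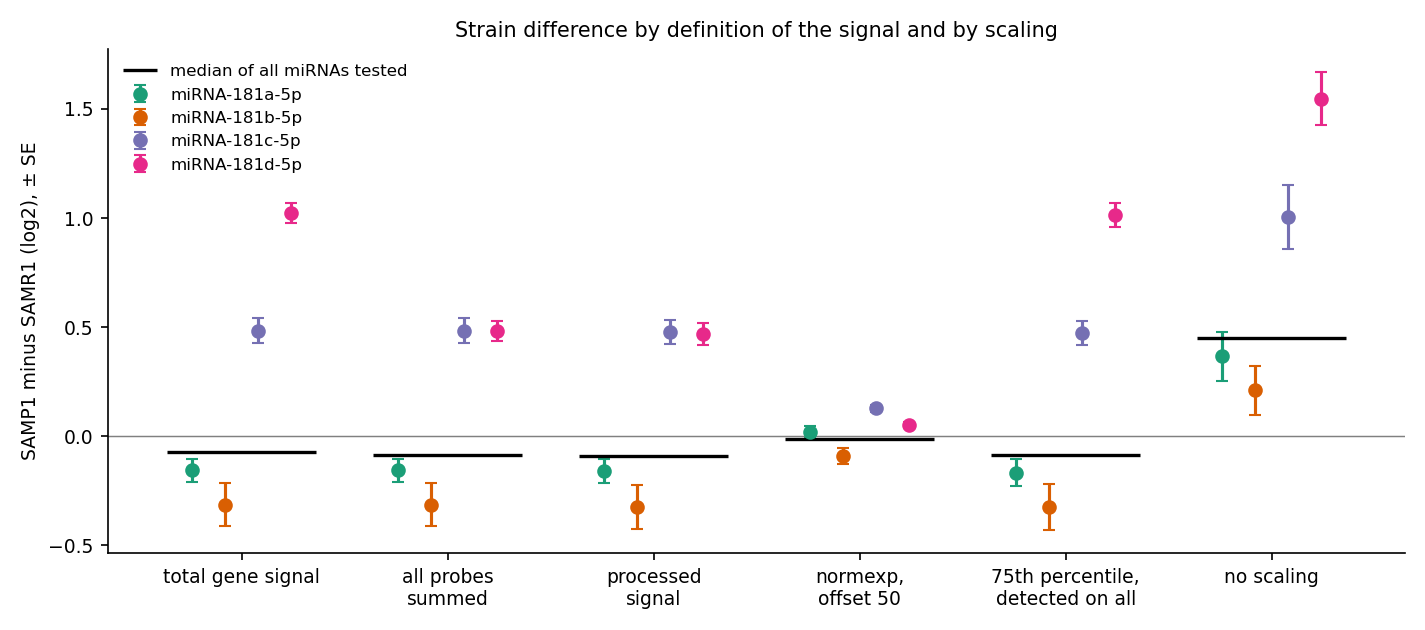
Strain difference SAMP1 minus SAMR1 on the log2 scale (y axis, ± SE, 8 mice per strain) of the 4 members named 5p under 6 ways of obtaining the signal (x axis); black lines are the median of all tested miRNAs. MiRNA-181d-5p fell from 1.02 with the total gene signal to 0.48 with all probes summed, where miRNA-181c-5p also stood at 0.48, and with no scaling miRNA-181a-5p and miRNA-181b-5p changed sign.

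Differences between 2 members on the same array need no scaling. The difference miRNA-181c-5p minus miRNA-181a-5p was -3.16 to -2.73 in SAMR1 mice and -2.39 to -1.80 in SAMP1 mice, with no overlap. The strains therefore differed by 0.64 (exact permutation test, p = 0.000155, adjusted p = 0.00070 over 9 tests). MiRNA-181c-5p minus miRNA-181b-5p was -1.60 to -0.97 in SAMR1 mice and -0.71 to 0.31 in SAMP1 mice, and differed by 0.80 (exact permutation test, p = 0.000155, adjusted p = 0.00070). MiRNA-181b-5p minus miRNA-181a-5p was -1.87 to -1.51 in SAMR1 mice and -2.11 to -1.62 in SAMP1 mice, overlapping ranges that differed by -0.16 (exact permutation test, p = 0.044, adjusted p = 0.13). Without SAMR1-10wk animal 5 that difference was -0.19 (exact permutation test, adjusted p = 0.033). Relative to both members encoded elsewhere, miRNA-181c-5p was thus higher in SAMP1 mice.

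Within the chromosome 8 pair, the difference miRNA-181d-5p minus miRNA-181c-5p was -1.48 to -1.11 in SAMR1 mice and -0.96 to -0.65 in SAMP1 mice as deposited. With all probes summed it was -0.86 to -0.55 in SAMR1 mice and -0.96 to -0.65 in SAMP1 mice. The first pair of ranges did not overlap, and the second did, with strain means that differed by -0.00071. Over the 4 combinations of single probes the strains differed by -0.08 to 0.13. Summed over all probes, miRNA-181d-5p minus miRNA-181a-5p differed by 0.64 between the strains and miRNA-181d-5p minus miRNA-181b-5p by 0.80. These are descriptions, because miRNA-181d-5p was chosen for its strain difference.

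**Figure D4:**
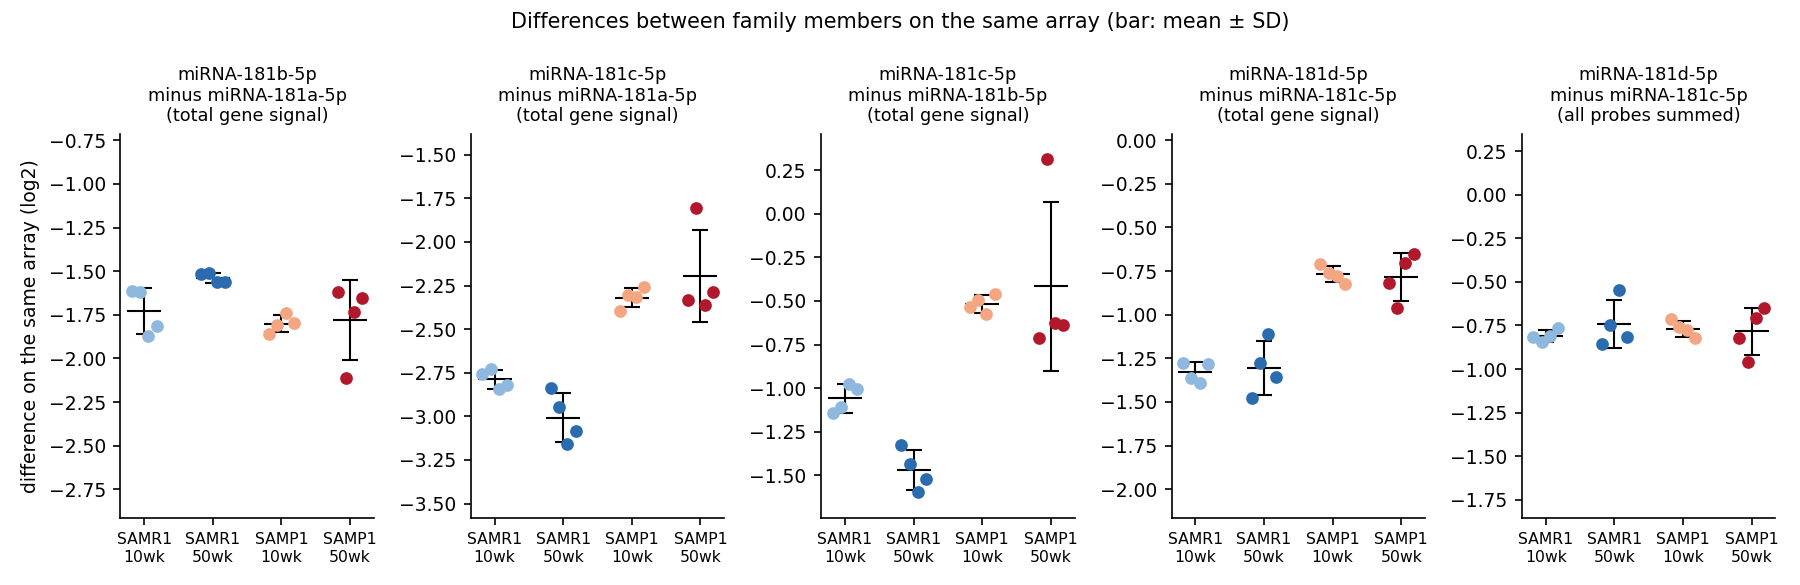
Difference in log2 signal between 2 members on the same array (y axis) in each mouse of the 4 groups (x axis); bars are mean ± SD of 4 mice and every panel spans the same range. The strains did not overlap for miRNA-181c-5p against miRNA-181a-5p or miRNA-181b-5p, and for miRNA-181d-5p against miRNA-181c-5p they separated with the total gene signal and overlapped with all probes summed.

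Averaged over the strains, miRNA-181a-5p, miRNA-181c-5p and miRNA-181d-5p were called lower with age, although in SAMR1 mice alone miRNA-181a-5p stood at 0.07. The change from 10 to 50 weeks was -0.20 ± 0.05 for miRNA-181a-5p (limma, adjusted p = 0.023), -0.25 ± 0.06 for miRNA-181c-5p (limma, adjusted p = 0.010) and -0.25 ± 0.05 for miRNA-181d-5p (limma, adjusted p = 0.0031), while 4.72% of the tested miRNAs were called higher and 6.82% lower. For miRNA-181b-5p it was -0.10 ± 0.10 (limma, adjusted p = 0.56). The call of miRNA-181a-5p was lost without SAMR1-10wk animal 7, SAMR1-50wk animal 6 or SAMP1-10wk animal 5 (limma, adjusted p = 0.0504 to 0.0583), where the change was still -0.193 to -0.188. It was also lost with the 90th or 75th percentile over miRNAs detected on every array (limma, adjusted p = 0.080 and 0.064). With no scaling no member passed, at -0.04, 0.07, -0.08 and -0.08 in the order of their letters, where the median of all tested miRNAs was 0.14. Calls by age over all miRNAs were 18 higher and 26 lower as scaled here, 27 higher and 22 lower with the 90th percentile over miRNAs detected on every array, 21 and 19 with the 75th, 11 and 1 with no scaling, and 15 and 15 without SAMR1-10wk animal 7. An exact permutation test of the 2 age means, two-sided and over both strains together, gave p = 0.053 for miRNA-181a-5p, 0.63 for miRNA-181b-5p, 0.10 for miRNA-181c-5p and 0.39 for miRNA-181d-5p. The spread in this test also includes any difference between the strains.

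All 4 members fell in SAMP1 mice. The change was -0.48 ± 0.08 for miRNA-181a-5p (limma, adjusted p = 0.00097), -0.46 ± 0.14 for miRNA-181b-5p (limma, adjusted p = 0.027), -0.36 ± 0.08 for miRNA-181c-5p (limma, adjusted p = 0.0055) and -0.37 ± 0.07 for miRNA-181d-5p (limma, adjusted p = 0.0017). In the SAMP1 mice 6.04% of all tested miRNAs were called higher and 22.3% lower, and the median was -0.15. These 23 calls higher and 85 lower became 32 and 31 with the 90th percentile over miRNAs detected on every array, 36 and 37 with the 75th, 23 and 0 with no scaling, 12 and 56 without SAMP1-50wk animal 4, 14 and 80 without SAMP1-50wk animal 2, and 15 and 58 without SAMP1-10wk animal 5. For each of the 4 every 50-week-old SAMP1 mouse was below every 10-week-old one, which held for 27.3% of the tested miRNAs, and the opposite for 7.61%. With the 90th percentile over miRNAs detected on every array, the call of miRNA-181a-5p was kept (-0.33, limma, adjusted p = 0.027), while the other 3 stood at -0.31, -0.21 and -0.23 (limma, adjusted p = 0.19, 0.061 and 0.062). With no scaling the 4 stood at -0.05, -0.03, 0.07 and 0.05, where the median was 0.27. The miRNA-181b-5p call was lost without SAMP1-10wk animal 5 or 6 (limma, adjusted p = 0.0602 to 0.0774), with the change at -0.45 to -0.42. Without SAMP1-50wk animal 2 its change in SAMP1 mice was -0.27. In SAMR1 mice 0 of the 4 passed by limma, with changes of 0.07, 0.27, -0.14 and -0.12, and 8.66% of the tested miRNAs were called higher and 1.31% lower. Those 33 calls higher and 5 lower became 23 and 9 with the 90th percentile over miRNAs detected on every array, 16 and 7 with the 75th, 12 and 5 with quantile normalization and 0 with no scaling (limma, against 16 at an unadjusted p under 0.05). Leaving out SAMR1-10wk animal 4 or 7, or SAMR1-50wk animal 2 or 12, left 18 to 21 higher and 1 to 3 lower. There were 50 higher and 7 lower without SAMP1-50wk animal 2, 44 and 2 without SAMR1-50wk animal 9, 32 and 1 without SAMR1-10wk animal 1, and 33 and 3 without SAMR1-50wk animal 6. By the exact permutation test, unadjusted, 1 of the 4 passed in SAMR1 mice, miRNA-181b-5p at p = 0.0286, the smallest that 4 against 4 mice can give. It is reached wherever the groups do not overlap, as for 14.7% of the tested miRNAs upwards and 3.15% downwards. Its change of 0.27 also passed limma without SAMP1-50wk animal 2 (adjusted p = 0.020).

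The difference between the strains in the change with age was tested as an interaction. It was -0.55 ± 0.11 for miRNA-181a-5p (limma, adjusted p = 0.0045) and -0.72 ± 0.20 for miRNA-181b-5p (limma, adjusted p = 0.019), where 1.84% of the tested miRNAs were called higher and 24.9% lower and the median was -0.25. For miRNA-181c-5p it was -0.21 ± 0.11 (limma, adjusted p = 0.18) and for miRNA-181d-5p -0.25 ± 0.09 (limma, adjusted p = 0.061). The last passed with all probes summed, at -0.29 (limma, adjusted p = 0.023), and without SAMR1-10wk animal 1, at -0.30 (limma, adjusted p = 0.033). Both calls depended on the scaling. With the 90th percentile taken over the miRNAs detected on every array, the interaction was -0.31 for miRNA-181a-5p (limma, adjusted p = 0.23) and -0.48 for miRNA-181b-5p (limma, adjusted p = 0.26), and the calls over all miRNAs went from 7 higher and 95 lower to 6 higher and 5 lower, to 6 higher and 17 lower with quantile normalization, to 3 higher and 0 lower with the 75th percentile over the same miRNAs, or to 5 higher and 0 lower with no scaling. They were 14 and 94 without SAMR1-50wk animal 6, 6 and 61 without SAMR1-50wk animal 12, 6 and 62 without SAMR1-10wk animal 4, and 5 and 63 without SAMP1-10wk animal 6. Relative to the median of all tested miRNAs, the difference with age was 0.00 in SAMR1 mice and -0.33 in SAMP1 mice for miRNA-181a-5p, and 0.19 and -0.31 for miRNA-181b-5p. It was -0.22 and -0.20 for miRNA-181c-5p, and -0.19 and -0.22 for miRNA-181d-5p.

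**Figure D5:**
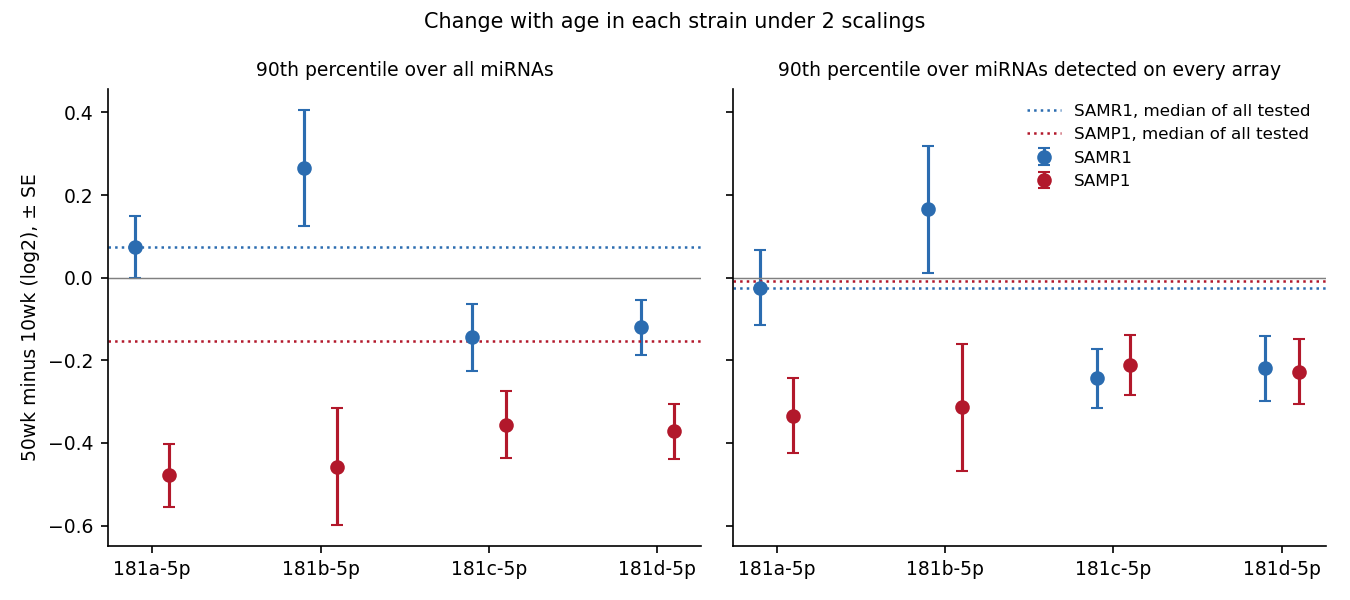
Change from 10 to 50 weeks on the log2 scale (y axis, ± SE, 4 mice per group) of the 4 members named 5p (x axis) in SAMR1 and SAMP1 mice, with the 90th percentile taken over all miRNAs (left) or over those detected on every array (right); dotted lines are medians of all tested miRNAs. With the second scaling the interaction shrank from -0.55 to -0.31 for miRNA-181a-5p and from -0.72 to -0.48 for miRNA-181b-5p, and it was 0.03 for miRNA-181c-5p and -0.0075 for miRNA-181d-5p.

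Within arrays and over both strains together, 0 of the 6 differences between members passed the exact permutation test for age (adjusted p = 0.45 to 0.98, unadjusted p = 0.20 to 0.98). The spread in this pooled test includes the strain difference, 0.80 for miRNA-181c-5p minus miRNA-181b-5p for example. It could therefore miss a change with age. For miRNA-181d-5p minus miRNA-181c-5p the mean at 50 weeks was 0.0042 above that at 10 weeks on the log2 scale, with 0.02 in SAMR1 mice and -0.02 in SAMP1 mice. Within SAMR1 mice the ages did not overlap for the 3 differences that involve miRNA-181b-5p, nor, with all probes summed, for miRNA-181d-5p minus miRNA-181a-5p, at -3.66 to -3.57 at 10 weeks and -3.90 to -3.69 at 50 weeks (exact permutation test, unadjusted p = 0.0286). With the total gene signal the difference with age was 0.19 for miRNA-181b-5p minus miRNA-181a-5p, -0.41 for miRNA-181c-5p minus miRNA-181b-5p and -0.39 for miRNA-181d-5p minus miRNA-181b-5p. Each of these 3 had the smallest possible p (exact permutation test, p = 0.0286) and none passed after adjustment over the 12 tests within strains (adjusted p = 0.11). In SAMP1 mice the same 3 were 0.02, 0.10 and 0.09, and p was 0.34 to 1 over all 6 (exact permutation test). The difference between the strains in these changes was not tested. Without SAMP1-50wk animal 2, miRNA-181b-5p minus miRNA-181a-5p rose with age by 0.17 (exact permutation test, adjusted p = 0.016).

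The lists of markers of other cells did not all move alike across the groups. Of the 8 listed leukocyte miRNAs, 7 were tested, and 5 were called higher in SAMP1 mice, 3 higher with age and 3 higher in the interaction, where 7.35%, 4.72% and 1.84% of all tested miRNAs were. One of the 5, miRNA-342-3p, entered the tests only through the SAMP1 groups, and of the 6 detected on every array 4, 3 and 3 were called. The summed scaled signal of the whole list was 177 to 227 in young and 187 to 220.3 in old SAMR1 mice, and 189 to 249 in young and 359 to 562 in old SAMP1 mice, and miRNA-342-5p was not detected on any array. MiRNA-181a-5p and miRNA-181b-5p were lowest where that sum was highest. The 6 epithelial miRNAs summed to 3438 to 3657, 3713 to 4290, 4052 to 4448 and 3549 to 3944 in the same order of groups, with 5 of the 6 called lower in the interaction, as were 24.9% of all tested miRNAs, and 2, miRNA-192-5p and miRNA-194-5p, called higher in SAMP1 mice. The 2 endothelial miRNAs, miRNA-126a-3p and miRNA-126a-5p, summed to 1030.3 to 1126, 1059.9 to 1298, 1074 to 1159 and 939 to 1081, with both called lower in the interaction. These epithelial and endothelial interaction calls depended on the scaling. Over all tested miRNAs, the 95 calls lower became 5 with the 90th percentile over miRNAs detected on every array. With the 75th, or with no scaling, there were 0, so none of these calls was kept there. Of the 5 fibroblast miRNAs, 3 were called higher and 2 lower with age, where 4.72% and 6.82% of all tested miRNAs were, and 1 was called higher and 2 lower in SAMP1 mice, against 7.35% and 23.9%. Their sum was 370 to 408, 388 to 465, 396 to 455 and 390 to 505. Of the 5 erythrocyte miRNAs 4 were on the array, and their sum was 143 to 1828, 38.7 to 109, 60.1 to 789 and 323 to 1971. Of these, miRNA-451a, detected on every array, was called higher in the interaction, at 5.44 (limma, adjusted p = 0.0086), as were 1.84% of all tested miRNAs. MiRNA-144-3p was detected on 10 of 16 arrays and on none of the SAMR1-50wk ones. It entered the tests only through the SAMR1-10wk and SAMP1-50wk groups, which count upwards in the interaction, so no test is given for it. The part of these cells in the family's values was not tested.

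MiRNA-181a-1-3p was at the edge of detection. It was detected in 1 of 4 young and 2 of 4 old SAMR1 mice, and in 4 of 4 young and 1 of 4 old SAMP1 mice. It entered the tested miRNAs only through the SAMP1-10wk group, so no test is given. Its 18-base probe had a signal of 1.60 to 2.28 in SAMR1 mice and 1.56 to 3.45 in SAMP1 mice, or 2.36 to 3.16 and 2.25 to 3.96 times its error, and passed the limit on 3 of 8 and 5 of 8 arrays. The 17-base probe passed on 1 array, in a SAMP1-10wk mouse. On the log2 scale after scaling, the 18-base probe averaged 1.22 ± 0.22 (SD, n = 4) in young and 1.29 ± 0.20 in old SAMR1 mice, and 1.51 ± 0.05 in young and 0.77 ± 0.09 in old SAMP1 mice. Before scaling, the old SAMP1 arrays gave 2.45, 3.15, 2.64 and 1.56, of which 3 were above every SAMR1 array, so the order of the groups changes with the scaling. The opposite arms miRNA-181a-2-3p, miRNA-181b-1-3p, miRNA-181b-2-3p, miRNA-181c-3p and miRNA-181d-3p were not detected on any of the 16 arrays. The highest signal among their 12 probes was 0.328, and no probe exceeded 0.912 times its error.

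The next miRNA genes on chromosome 8, Mir23a (chr8:84208518-84208592), Mir27a (chr8:84208672-84208758) and Mir24-2 (chr8:84208815-84208921), lie 29.6 kb from Mir181c on the plus strand. Their products did not pass the strain test. The difference was -0.02 ± 0.05 for miRNA-23a-3p (limma, adjusted p = 0.81), -0.09 ± 0.05 for miRNA-27a-3p (limma, adjusted p = 0.18), 0.01 ± 0.05 for miRNA-24-3p (limma, adjusted p = 0.83) and 0.14 ± 0.06 for miRNA-24-2-5p (limma, adjusted p = 0.085). MiRNA-24-3p is also made from a locus elsewhere. Over both strains, 1 of the 4 was called by age, miRNA-24-2-5p at -0.20 (limma, adjusted p = 0.042), where 6.82% of all tested miRNAs were called lower. In SAMP1 mice it was called at -0.25 (limma, adjusted p = 0.041) and miRNA-24-3p at -0.19 (limma, adjusted p = 0.036), where 22.3% were. The arms miRNA-23a-5p and miRNA-27a-5p were not detected on any array.

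Over the 16 arrays and the other 321 miRNAs detected on every array, the pattern most like that of miRNA-181d-5p was that of miRNA-181c-5p (Pearson r = 0.93). MiRNA-181a-5p (r = -0.15) ranked 146 and miRNA-181b-5p (r = -0.37) ranked 214. Outside the family the closest were miRNA-193b-3p (r = 0.91), miRNA-192-3p (r = 0.79), miRNA-192-5p (r = 0.71), miRNA-669f-3p (r = 0.71) and miRNA-150-5p (r = 0.70). With all probes of miRNA-181d-5p summed, miRNA-181c-5p was again the closest (r = 0.95), miRNA-181a-5p (r = 0.08) ranked 99 and miRNA-181b-5p (r = -0.20) ranked 165, and miRNA-143-3p (r = 0.72) took the place of miRNA-150-5p among the 5 closest outside the family. These correlations are descriptions over arrays that share the strain groups, the slides and the scaling. Taken from each group's mean, the deviations of miRNA-181c-5p and miRNA-181d-5p correlated at r = 0.37, and at r = 0.43 with all probes summed. Those of miRNA-193b-3p and miRNA-181a-5p correlated with miRNA-181d-5p at r = 0.38 and r = 0.34, and at r = 0.26 and r = 0.36 with all probes summed, so these values do not set the chromosome 8 pair apart.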

How the data were processed

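Kidney cortex RNA of 16 male mice, labelled with Cy3, was hybridized to 1-colour Agilent mouse miRNA arrays, 1 mouse per array. The authors extracted intensity values with Agilent Feature Extraction 12.0.3.1; the deposited intensity is background-subtracted and summed per miRNA. The authors' own log2 values, scaled in GeneSpring to the 90th percentile and set relative to SAMR1-10wk, served as an alternative. Here the total gene signal was raised to each array's lowest detected signal, scaled to its 90th percentile over all 1881 miRNAs and log2-transformed. Group means were fitted with limma 3.58.1 in R 4.3.3, with Benjamini-Hochberg adjustment over 381 miRNAs that some group showed on each of its 4 arrays, and a call meant an adjusted p under 0.05. The fit was tested on simulated data. Single members and within-array differences were tested by exact permutation, two-sided. The members and lists were chosen with earlier results of these data known. The genes named are the members, the other arms of the hairpins, the chromosome 8 neighbours, the marker lists and the 5 miRNAs most correlated with miRNA-181d-5p. The labels give separate mice, so p-values measure the spread between mice of 1 experiment, and their number limits the precision. Alternatives were the background correction, scaling, floor, filter, test, slide, replicate block, a 2-fold limit and leaving out each array. Summing all probes, and taking single probes of a member alone, were added after seeing the data. Animal numbers shared between groups belong to different mice. Probe coordinates in the array files (mm9) were not used.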

Additional observations from a re-analysis of the deposited data

Results flagged for a closer look

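In the SAMP1-50wk group, miRNA-181b-5p in animal 2 stood apart, at 3.37 on the log2 scale against 4.06 to 4.17 in the other 3 mice. It was the only such value among 16 groups of 4 mice examined, where chance gives about 1 in 20.

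The change with age differed between the strains for miRNA-181a-5p, by -0.55 on the log2 scale, and for miRNA-181b-5p, by -0.72, in the limma interaction test. Both calls were lost with the 90th percentile over miRNAs detected on every array (-0.31 for miRNA-181a-5p and -0.48 for miRNA-181b-5p) and in 4 more of the 16 settings tried, and 24.9% of all tested miRNAs were called lower in the same contrast.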

How the results depend on the processing

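With no scaling between arrays, the strain differences over both ages were 0.37 for miRNA-181a-5p, 0.21 for miRNA-181b-5p and 1.55 for miRNA-181d-5p, and at 50 weeks 0.35, 0.11 and 1.68, with 1.41 for miRNA-181d-5p at 10 weeks. Age differences were then -0.036 for miRNA-181a-5p, 0.070 for miRNA-181b-5p, -0.084 for miRNA-181c-5p and -0.080 for miRNA-181d-5p, the interactions -0.035, -0.20, 0.31 and 0.27 and the age differences in SAMP1 mice -0.053, -0.032, 0.070 and 0.054, with -0.018 for miRNA-181a-5p in SAMR1 mice. The counts called were 271 by strain, 12 by age and 5 in the interaction, against 119, 44 and 102 as reported.

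With the 90th percentile over miRNAs detected on every array, miRNA-181a-5p lost its calls by strain (-0.13), age (-0.18) and interaction (-0.31), and its age difference in SAMR1 mice was -0.025. MiRNA-181b-5p lost those by strain (-0.29), interaction (-0.48) and age in SAMP1 mice (-0.31), and its strain difference at 10 weeks was -0.051. MiRNA-181c-5p and miRNA-181d-5p lost age in SAMP1 mice (-0.21 and -0.23), the miRNA-181c-5p interaction was 0.032, and the strain difference of miRNA-181d-5p was 1.05 at 10 and 1.04 at 50 weeks. With the 75th percentile over the same miRNAs, miRNA-181a-5p lost strain (-0.17), age (-0.19) and interaction (-0.35) and stood at -0.0100 for age in SAMR1 mice. MiRNA-181b-5p lost interaction (-0.52) and age in SAMP1 mice (-0.34) and stood at -0.061 by strain at 10 weeks, and miRNA-181d-5p differed by strain by 1.04 and 0.99 at the 2 ages. With quantile normalization, strain and interaction were lost for miRNA-181a-5p (-0.15 and -0.37, with age in SAMR1 mice at -0.011) and miRNA-181b-5p (-0.24 and -0.60), and age in SAMP1 mice for miRNA-181b-5p (-0.38). Interaction counts under these 3 scalings were 11, 3 and 23.

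With normexp, the strain difference of miRNA-181a-5p was 0.019, and 0.15 and called at 10 weeks, that of miRNA-181b-5p was -0.090 and not called, and that of miRNA-181d-5p was 0.053, with 0.11 at 10 and -4.8e-05 at 50 weeks. The miRNA-181d-5p interaction was -0.11 and called, and its age difference in SAMR1 mice 0.0015. The counts were 195 by strain and 50 in the interaction. The authors' processed values lost the strain calls of miRNA-181a-5p (-0.14) and miRNA-181b-5p (-0.29), with 49 interaction calls, as did slide in place of age (-0.16 and -0.31). With no filter, where signals of undetected miRNAs also enter, calls were lost for miRNA-181a-5p by age (-0.20) and interaction (-0.55), miRNA-181b-5p by interaction (-0.72) and miRNA-181c-5p by age (-0.25), and the counts were 1580, 22 and 8.

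For miRNA-181d-5p, the processed signal gave strain differences of 0.47, 0.61 at 10 weeks and 0.32 at 50 weeks and an interaction of -0.29, now called. All probes summed gave 0.48, 0.63, 0.34 and -0.29, also called. The two-way analysis of variance gave an interaction of -0.25, now called with and without adjustment, and 104 miRNAs called by age without adjustment. Within arrays, the strain difference of miRNA-181d-5p against miRNA-181a-5p, miRNA-181b-5p and miRNA-181c-5p was 0.63, 0.79 and -0.0094 with the processed signal, and 0.64, 0.80 and -0.00071 with all probes summed. It was 0.75, 0.95 and 0.088 with the shorter probe of each member, 0.59, 0.72 and -0.039 with the longer ones, and 0.58, 0.77 and -0.084 or 0.76, 0.89 and 0.13 with one of each. A 2-fold limit left 8 calls by strain, 0 by age (limma, against 44 without the limit) and 10 in the interaction. Where no construction is named, the cause was not tested.

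Leaving out each array in turn gave strain differences of -0.18 to -0.12 for miRNA-181a-5p and -0.35 to -0.22 for miRNA-181b-5p, with -0.0082 to 0.11 for miRNA-181b-5p at 10 weeks. The age difference was -0.23 to -0.16 for miRNA-181a-5p, that of miRNA-181b-5p 0.21 to 0.32 in SAMR1 and -0.54 to -0.27 in SAMP1 mice, and the miRNA-181d-5p interaction -0.30 to -0.20. Within arrays, miRNA-181b-5p minus miRNA-181a-5p was -0.19 to -0.11 by strain and 0.085 to 0.17 by age. Interaction counts were 67 to 119, with 67 without SAMR1-50wk animal 12.

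Animal numbers recur between groups but belong to different mice, and deviations of same-numbered mice from their group means correlated at -0.43 to 0.21 over 7 pairs. With the animal number as a replicate block the strain difference of miRNA-181c-5p was 0.48, no member's call changed, and 121 miRNAs were called by strain, 44 by age and 103 in the interaction. Members near the detection limit, miRNA-181d-5p and miRNA-181a-1-3p, carry the largest error from signal over background.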
